A study of Mus musculus with 4 samples.

Results

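Immediate-early genes are transcribed within minutes of a stimulus from factors already present in the cell, and their transcripts are short-lived. The group described here holds 10 of them: Fos, Fosb, Fosl2, Jun, Junb, Egr1, Egr2, Ier2, Nr4a1 and Arc. They were taken by symbol, through the GENCODE M21 annotation, from a table of 34866 gene identifiers, and all 10 were found. RNA had been sequenced from wildtype mouse neural stem and progenitor cells (NSPCs), dissociated from E11.5 dorsal telencephalon and kept for 5 days as neurospheres, floating balls of dividing cells, in medium with 20 ng/ml basic fibroblast growth factor. Every culture received lentivirus when plated. The shControl group (2 libraries) was given 1 vector with a control hairpin at a multiplicity of infection of 30, and the triple knockdown group (2 libraries) was given 3 vectors, each at 10, with hairpins to Phf21b, Zfp7 and Zfp57, genes of nuclear proteins. The number of vectors and, for the Zfp7 and Zfp57 hairpins, the backbone also differed between the groups, so these cannot be told apart from the knockdown. No label says whether the 2 replicates of a group were separate cultures, so the p-values cover the spread of these libraries alone, which may be technical.

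A growth factor, depolarisation or stress reaches these genes through kinases, mainly ERK, that act on transcription factors already bound to the promoters: serum response factor (SRF) with its Elk partners at the CArG box, and CREB at the cAMP response element (CRE). Fos and Jun family proteins pair as AP-1, Egr proteins and Nr4a1 are DNA-binding factors, Ier2 is a small nuclear protein, and Arc acts at the synapse. The basic fibroblast growth factor of the medium itself activates ERK, and in neurons several of these genes follow electrical activity.

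The libraries held 14694387 to 20779211 estimated counts, of which mitochondrially encoded genes took 30.3% and 33.9% in shControl and 26.6% and 28.5% after triple knockdown. All 12 progenitor markers looked for were detected, with Fabp7 and Vim the most abundant. Markers of other cells were also detected at low levels, with shControl means of 15.4 CPM for Lyz2 and 7.74 CPM for Ptprc (macrophages and leukocytes) and 3.69 CPM for Pecam1 (endothelium), while Csf1r was at 0 in both shControl libraries and Cldn5 at 0 in 1. The targeted genes did not pass the test: Zfp57 measured 14.6 and 11.8 CPM (counts scaled to a library of 1000000) in shControl and 10.7 and 9.32 after triple knockdown, Phf21b 7.25 and 7.36 against 5.49 and 6.45, and Zfp7 1.67 and 2.25 against 1.97 and 0.977 (edgeR adjusted p = 0.341, 0.644 and 0.80).

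In these libraries Fos lay lower after triple knockdown and Egr1 and Fosl2 lay higher, while the sum over the 10 genes overlapped between the groups. The summed level of the 10 was 24.4 and 23.6 CPM in shControl and 25.0 and 24.0 CPM after triple knockdown. Ier2 and Jun were the largest parts of this sum in every library. In shControl they measured 8.36 and 6.01 CPM (Ier2) and 6.78 and 6.91 CPM (Jun). The sum therefore follows them more than the other genes. Single differences did not pass the test across all genes. Of the 10 genes 7 had enough counts to be tested, and 0 of these 7 passed an adjusted p of 0.05 in edgeR's quasi-likelihood test. Over all tested genes 192 of 14050 passed, or 1.37% (0.541% higher and 0.826% lower). By DESeq2 and by limma-voom 0 of the 7 passed as well. With an unadjusted edgeR p under 0.05 there were 3 of 7 (Fos, Egr1 and Fosl2), against 12% of all tested genes. This depended on the method. The unadjusted DESeq2 p of these genes was 0.0866, 0.116 and 0.172, with wider SEs of 0.54, 0.50 and 0.47. By limma-voom the unadjusted p was 0.0156, 0.0270 and 0.0106. The knockdown libraries lay entirely above the control libraries for 3 of the 7 and entirely below for 3, against 19.6% and 21.7% of all tested genes. Together that is 6 of 7 against 41.3%. The members were chosen with earlier results of these data known, so these shares do not show a trait of the group. The median log2 fold change of the 7 was -0.15, and that of all tested genes was -0.01. The sign of the former turned in 2 alternatives, to 0.12 without shControl replicate 1 and to 0.13 with a stricter filter on low counts, which drops Junb.

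**Figure D1:**
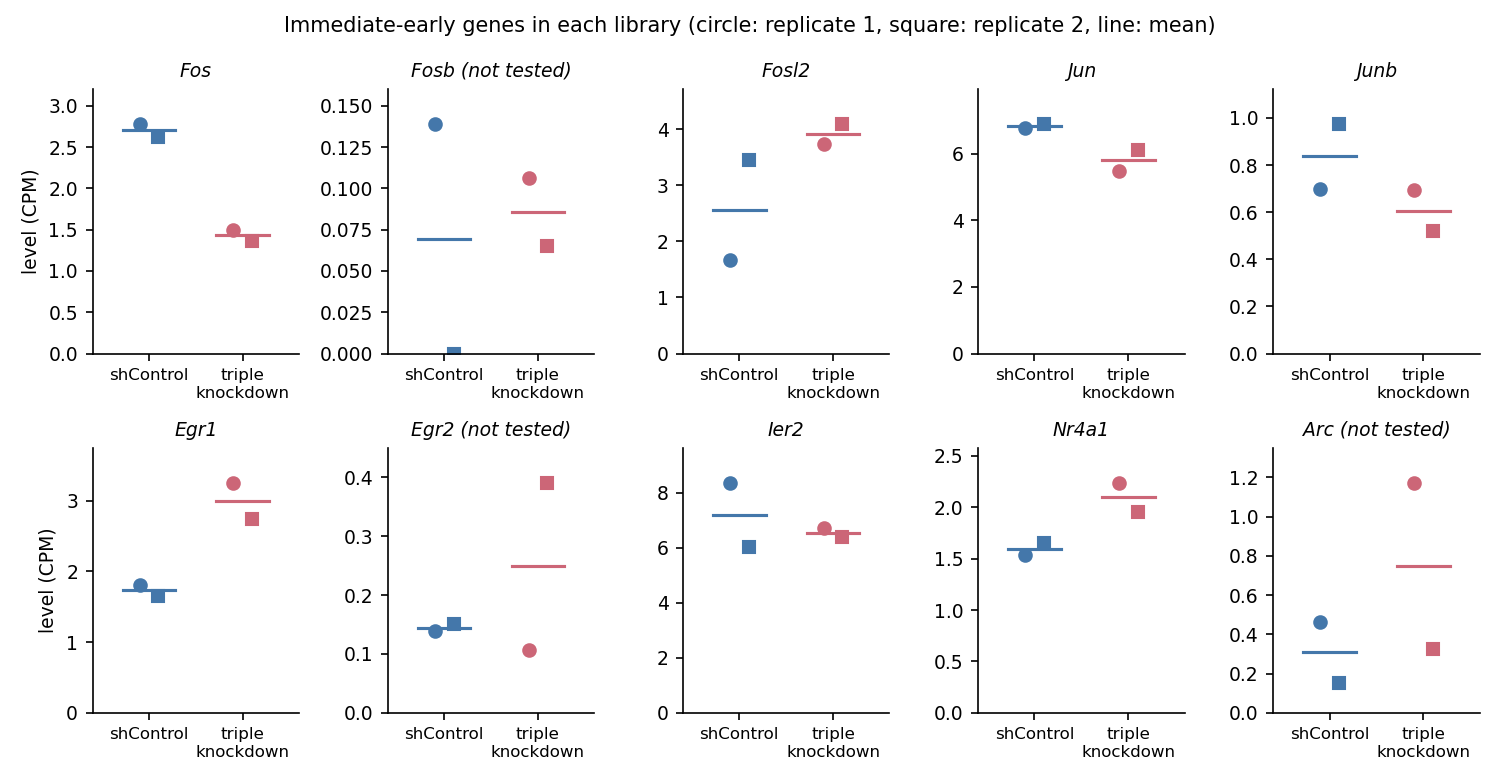
Level of each immediate-early gene in CPM (vertical axis, from 0, its own scale in each panel) in the 2 shControl and the 2 triple knockdown libraries; points are libraries and lines are group means. Fos sits at 2.79 and 2.63 CPM in shControl and at 1.49 and 1.37 CPM after triple knockdown, while both Egr1 points of the triple knockdown lie above both control points.

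Fos encodes an AP-1 subunit and is among the genes that respond fastest to growth factor. The gene lies on chromosome 12 (85473890 to 85477273, plus strand, GRCm38). Its level was 2.79 and 2.63 CPM with the control hairpin and 1.49 and 1.37 CPM after triple knockdown. The groups did not overlap, and the 2 libraries of each group lay close together. The mean went from 2.71 ± 0.111 to 1.43 ± 0.0879 CPM (SD, n = 2 each). The log2 fold change was -0.92 (SE 0.37), which places Fos at 52.9% of control with a 95% interval of 31.9% to 87.9%. The edgeR p was 0.0146 and the adjusted p 0.248. The gene rests on few reads, at 60 and 35 counts in shControl and 28 and 21 after triple knockdown.

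Fosb and Fosl2 are the other Fos family genes of the group. Fosb (chromosome 7, 19302696 to 19310051 in GRCm38) had 3 and 0 counts in shControl and 2 and 1 after triple knockdown, below the filter, and with 3 counts in all in each group no fold is given (edgeR p without the filter = 0.964, adjusted p = 1.00). Fosl2, which encodes Fra-2, a longer-lived Fos relative (chromosome 5, 32135801 to 32157842), measured 1.67 and 3.46 CPM in shControl and 3.73 and 4.10 CPM after triple knockdown. Both triple knockdown libraries lay above both controls, but the control libraries differed from each other by 2.07-fold. The log2 fold change was 0.67 (edgeR adjusted p = 0.347, SE 0.31). It was 0.18 without shControl replicate 1, and 1.23 with an adjusted p of 0.0191 without shControl replicate 2, so 1 control library set both the size and the call. The ratio of Fosl2 to Fos counts, chosen after the values were seen, was 0.60 and 1.31 in shControl and 2.5 and 3.0 after triple knockdown.

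Jun and Junb encode the other partner of the AP-1 dimer. Jun (chromosome 4, 95049034 to 95052222) measured 6.78 and 6.91 CPM in shControl and 5.49 and 6.12 CPM after triple knockdown. The groups did not overlap, and the difference was small, at 84.7% of control with a 95% interval of 62.6% to 115% (edgeR adjusted p = 0.737, log2 fold change -0.24 with an SE of 0.22). Junb, often described as an antagonist of Jun in cell growth (chromosome 8, 84974484 to 84978718), measured 0.697 and 0.977 CPM in shControl and 0.693 and 0.521 CPM after triple knockdown. Its interval ran from 33.3% to 169% of control, so at 8 to 15 counts per library a loss or gain within these bounds cannot be told from no change. Of the exonic bases of Jun 7.28% overlap Junos on the opposite strand, and of those of Junb 7.52% overlap Prdx2. Prdx2, at 985 to 1128 CPM, is far more abundant than Junb, and no source used here says whether the counting used strand.

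Egr1 and Egr2 are zinc-finger factors; Egr1 follows ERK signalling closely in many cells, and Egr2 is best known from hindbrain patterning and myelination. Egr1 (ENSMUSG00000038418.7) measured 1.81 and 1.65 CPM in shControl and 3.25 and 2.74 CPM after triple knockdown. The groups did not overlap. The mean went from 1.73 ± 0.112 to 2.99 ± 0.364 CPM (SD, n = 2 each), with a log2 fold change of 0.78 (SE 0.34), or 1.72-fold with a 95% interval of 1.07 to 2.76. The edgeR p was 0.0247 and the adjusted p 0.31. Egr2 (chromosome 10, 67535475 to 67542188) had 3 and 2 counts in shControl and 2 and 6 after triple knockdown and was below the filter (edgeR p without it = 0.577, adjusted p = 0.885).

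Fos and Egr1 therefore lay on opposite sides of control. The ratio of their counts within a library needs no scaling between libraries, but it is made from these same counts and is no separate evidence. It was 1.54 and 1.59 with the control hairpin and 0.459 and 0.50 after triple knockdown. The 95% exact binomial intervals were 1.01 to 2.36 and 0.907 to 2.85 in shControl and 0.282 to 0.729 and 0.281 to 0.864 after triple knockdown. They do not overlap between the groups, but they cover counting error only. This pair was chosen after the values were seen, and the smallest p that an exact two-sided permutation test can give for 2 libraries a group is 0.33.

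**Figure D2:**
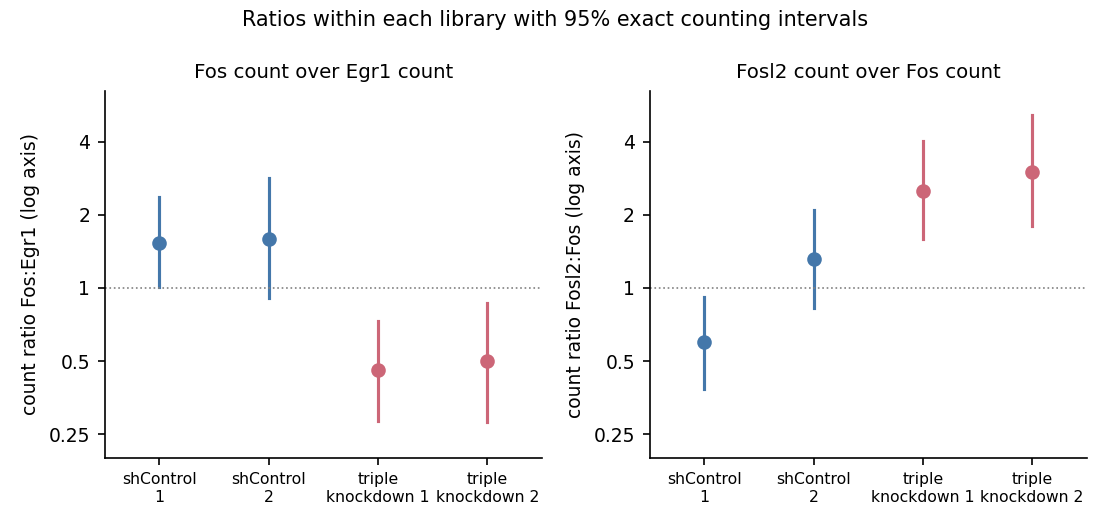
Ratio of 2 genes' counts within each library (log axis) for Fos over Egr1 and for Fosl2 over Fos. Points are the ratios and bars the 95% exact counting intervals. Both pairs were chosen after the values were seen. The Fos to Egr1 ratio is 1.54 and 1.59 in shControl and 0.459 and 0.50 after triple knockdown, and the Fosl2 to Fos interval of shControl replicate 2 overlaps those of both triple knockdown libraries.

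Ier2, Nr4a1 and Arc belong to neither the AP-1 nor the Egr family. Ier2, whose product is linked to transcription and cell motility (chromosome 8, 84661331 to 84662852), measured 8.36 and 6.01 CPM in shControl and 6.72 and 6.38 CPM after triple knockdown. Both triple knockdown values lay between the control values, and the log2 fold change was -0.15 (edgeR adjusted p = 0.852, SE 0.21), or 0.12 without shControl replicate 1. Nr4a1, an orphan nuclear receptor also called Nur77 (chromosome 15, 101254269 to 101274795), measured 1.53 and 1.65 CPM in shControl and 2.24 and 1.95 CPM after triple knockdown. The groups did not overlap, and the interval of the difference ran from 78.0% to 225% of control (edgeR adjusted p = 0.749, log2 fold change 0.41 with an SE of 0.38). Arc, a synaptic protein that removes AMPA receptors from the membrane (chromosome 15, 74669083 to 74672570), had 10 and 2 counts in shControl and 22 and 5 after triple knockdown. Replicate 1 was 3.09-fold and 3.6-fold above replicate 2, at 0.464 against 0.15 CPM and 1.17 against 0.326 CPM, and the groups overlapped. Pooled over libraries and set to equal depth, Arc was 2.30 times as high after triple knockdown, with a counting interval of 1.13 to 4.98 that leaves out the spread between libraries. Without the filter on low counts the edgeR p was 0.0954 and the adjusted p 0.706, with a log2 fold change of 1.19. In the fits that leave out a library the log2 fold change of Arc was 2.29 without shControl replicate 1, 0.73 without shControl replicate 2 and 1.81 without replicate 2 of the knockdown group (adjusted p = 0.478, 0.751 and 0.586), and without replicate 1 of the knockdown group it was below the filter.

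**Figure D3:**
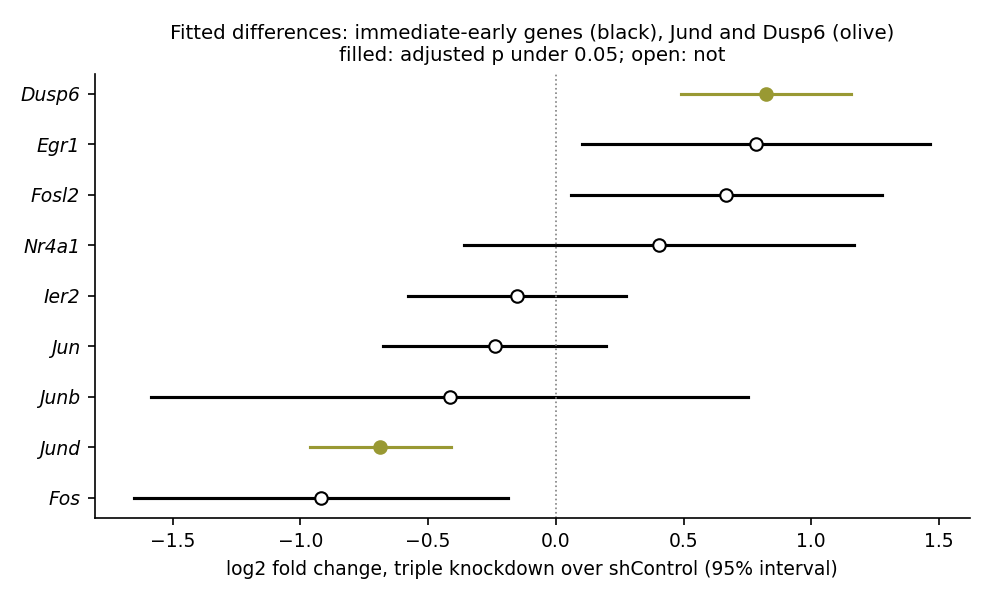
Fitted log2 fold change of the triple knockdown over shControl (horizontal axis) with 95% intervals for the 7 tested immediate-early genes and for Jund and Dusp6; filled points passed an adjusted p of 0.05. The edgeR intervals of Fos, Egr1 and Fosl2 leave out 0 before adjustment, and only Jund and Dusp6 are filled.

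Per length of transcript, Ier2 was the most abundant of the 10 and Fosb the least. In CPM per kilobase of mean transcript length, shControl levels were 4.72 ± 1.09 for Ier2, 2.48 ± 0.102 for Fos, 2.15 ± 0.0288 for Jun and 1.02 ± 0.0541 for Nr4a1 (SD, n = 2 each). Junb (0.727 ± 0.172), Fosl2 (0.657 ± 0.323) and Egr1 (0.461 ± 0.0298) followed, and Junb and Fosl2, and Fosl2 and Egr1, did not differ beyond their spread. Arc, Egr2 and Fosb were at or below 0.101 on this scale. In the triple knockdown Fos, at 1.31 ± 0.0805, came after Jun (1.82 ± 0.141) and beside Nr4a1 (1.34 ± 0.128), and Egr1, at 0.796 ± 0.0969, came before Junb (0.528 ± 0.106). By the longest transcript Fos, at 1.28 in shControl, came after Jun, at 2.15, in both groups, so the order of this pair in shControl depends on the length used.

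The 2 measures of spread between libraries of a group differed in direction for these genes. The median absolute log2 difference between replicates over the 7 tested members was 0.12 in shControl and 0.15 after triple knockdown, against 0.24 and 0.19 over all tested genes. The median edgeR dispersion of the 7 was 0.0307, against 0.0169 over all tested genes. Among the 7 it ran from 0.0161 for Ier2, the highest in CPM, to 0.0651 for Junb, the lowest. The comparison with all genes was not matched for level, so it does not show a trait of immediate-early genes. Fosl2 and Ier2 stood apart in shControl. Their log2 differences, -1.0 and 0.47 for replicate 1 minus replicate 2, were larger than the counting errors of 0.32 and 0.19. For Fos, Jun, Egr1 and Nr4a1 the replicate differences were smaller than the counting error in both groups. Among 7981 tested genes with a mean of 0.5 to 8 CPM, a window set after seeing the data that holds all 7 tested members, 69 passed (0.865%). The smallest log2 fold change that passed there was 0.76 in size, below those of Fos (-0.92) and Egr1 (0.78), which did not pass.

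By a rule on the 4 library values, the genes closest to the median profile of the 6 members above 1 CPM were Rpl13a, Anapc1, Siva1, Gm47283 and Psmb2, out of 5150 genes of at least 10 CPM. Their Euclidean distances on centred log2 CPM were 0.0464 to 0.053. The median profile itself was nearly flat, from -0.07 in shControl replicate 1 to 0.12 in triple knockdown replicate 1, with members that lay higher and lower on either side of it.

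Short promoter windows of the group were searched for the classic response elements. A motif absent from a window may still lie further from the start site, which was not searched. RefSeq windows of 300 bases, from 250 before to 50 after the start site in GRCm38.p6, were matched for 7 of the 10 genes (Egr2 with 5 windows). Egr1, Ier2 and Arc had no entry. All motifs were searched on both strands. For AP-1 the site looked for was TGANTCA. For CREB it was the CRE, TGACGTCA, and also its first bases alone, TGACG, called the short CRE here and held by every CRE. The CArG box bound by SRF was searched by its consensus. The EGR site was GCGNGGGCG. The ETS site, bound by factors such as Elk, was GGAAGT. The TATA box was searched as TATAAA. The 4 windows printed are those of Fos and Fosl2, whose levels lay on opposite sides of control, Nr4a1, which holds the most short CREs, and Egr2, which holds the CArG box. All are on the plus strand, at chr12:85473640-85473939, chr5:32136222-32136521, chr15:101266596-101266895 and chr10:67537619-67537918, and capitals mark matches to the motifs.
Fos: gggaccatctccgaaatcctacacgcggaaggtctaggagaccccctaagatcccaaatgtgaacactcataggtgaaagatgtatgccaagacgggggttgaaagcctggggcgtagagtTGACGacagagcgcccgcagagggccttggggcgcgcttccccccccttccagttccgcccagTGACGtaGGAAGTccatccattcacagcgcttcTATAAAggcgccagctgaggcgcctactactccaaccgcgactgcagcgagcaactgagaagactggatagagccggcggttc
Fosl2: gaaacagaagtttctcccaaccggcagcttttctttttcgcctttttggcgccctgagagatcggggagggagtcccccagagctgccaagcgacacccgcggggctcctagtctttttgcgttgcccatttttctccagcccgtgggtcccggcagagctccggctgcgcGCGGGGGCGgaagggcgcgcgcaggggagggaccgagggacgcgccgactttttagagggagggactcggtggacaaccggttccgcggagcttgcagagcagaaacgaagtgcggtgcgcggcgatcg
Nr4a1: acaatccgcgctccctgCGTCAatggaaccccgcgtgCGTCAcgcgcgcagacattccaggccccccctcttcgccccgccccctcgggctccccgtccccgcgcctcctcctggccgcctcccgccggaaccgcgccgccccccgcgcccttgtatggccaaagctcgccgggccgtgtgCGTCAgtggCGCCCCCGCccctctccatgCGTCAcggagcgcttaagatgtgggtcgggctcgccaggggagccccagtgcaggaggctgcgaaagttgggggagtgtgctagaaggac
Egr2: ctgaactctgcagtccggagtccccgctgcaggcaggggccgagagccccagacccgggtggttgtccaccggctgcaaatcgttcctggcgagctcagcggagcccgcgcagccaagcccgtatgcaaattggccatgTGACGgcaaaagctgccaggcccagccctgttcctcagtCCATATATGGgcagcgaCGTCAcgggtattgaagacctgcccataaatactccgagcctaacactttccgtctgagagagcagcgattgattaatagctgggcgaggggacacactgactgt
In the Fos window the capitals are short CREs at -129 and -66, an ETS site at -59 and a TATA box at -33, counted in bases from the start site to the first base of the match. Fosl2 has none of these and 1 EGR site at -79. Nr4a1 has 4 short CREs, all on the minus strand, at -233, -213, -69 and -40, and an EGR site at -60. Egr2 has a CArG box at -72 between short CREs at -111 and -55. A short CRE was found in 5 of the 7 genes (Fos, Fosb, Junb, Egr2 and Nr4a1), against 20.8% of all 32851 windows, and an EGR site in 3 (Fosb, Fosl2 and Nr4a1), against 5.55%. A member counted if any of its windows matched, while the shares are per window. Egr2, with 5 windows, therefore had more tries. The CArG box was found in 1 (1.63% of all windows), and ETS sites and TATA boxes in 2 each, Fos and Junb (23.8% and 13.6%). The full CRE and the AP-1 site were in 0 of the 7 (1.79% and 7.81% of all windows). The Jun window held no exact match to any of the motifs. It does hold TGACATCA, a near match to the CRE, and near matches were not counted. The short CRE was in genes whose knockdown libraries lay below control (Fos and Junb) and above it (Nr4a1). The EGR site was in Fosl2 and Nr4a1, which lay above, and not in the Fos, Jun or Junb window. Egr1, which also lay above, had no window. The TATA box match of Junb began at 0, the start site itself, and that of Fos at -33. This is a description of 5 genes, none of which passed the test, made after their values were seen. A link between motif and direction was not tested. These matches are letters in a window and say nothing of binding.

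**Figure D4:**
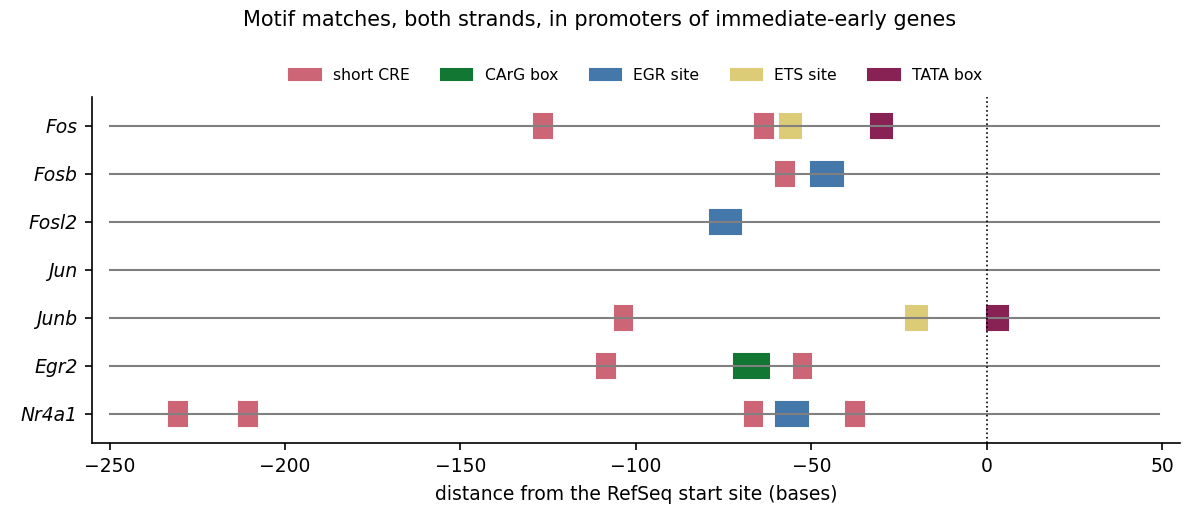
Position of motif matches (coloured boxes, both strands) in 300-base promoter windows of 7 immediate-early genes, by distance in bases from the RefSeq start site (horizontal axis, start at 0); for Egr2 1 of its 5 windows is drawn. Short CREs appear in 5 of the 7 genes, and the Jun window is empty because it holds no exact match.

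Among genes that work with the group, Jund fell and Dusp6 rose. Jund, the Jun relative that is kept at a steady level in most cells, measured 70.2 and 60.0 CPM in shControl and 41.0 and 40.0 CPM after triple knockdown, with no overlap. The log2 fold change was -0.69 (edgeR adjusted p = 0.00122, SE 0.14). Per kilobase Jund was at 39.0 ± 4.33 in shControl and 24.3 ± 0.419 after triple knockdown, far above Jun at 2.15 and 1.82 on the same scale, so it was the main Jun family transcript in both groups. The Jund value is uncertain, since 52.6% of its exonic bases overlap Gm11175 on the opposite strand and 50.1% of its 31-mers occur in that gene, which was not analysed here. Of the 11 tested AP-1 relatives and dimer partners 1 fell, 0 rose and 10 did not pass, with a median log2 fold change of -0.11. Dusp6, a phosphatase that switches off ERK and is itself induced by FGF, measured 12.4 and 12.7 CPM in shControl and 22.4 and 22.0 CPM after triple knockdown. It rose 1.77-fold (edgeR adjusted p = 0.00135, log2 fold change 0.82 with an SE of 0.17). Both calls were lost without replicate 1 or without replicate 2 of the knockdown group, with log2 fold changes close to those above. For Jund these were -0.71 and -0.67 (edgeR adjusted p = 0.128 and 0.0969), and for Dusp6 0.81 and 0.83 (adjusted p = 0.135 and 0.064). The Jund call was also lost when library totals replaced TMM, at -0.61 (adjusted p = 0.173).

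Dusp6 was the only gene to pass in edgeR among the tested early-response transcription factors, effectors and inhibitors. Of 14 tested early-response transcription factors 0 passed, with 1 at an unadjusted p under 0.05, and the median was -0.13. The most abundant were Crem, at 15.3 and 15.2 CPM in shControl and 13.6 and 17.2 CPM after triple knockdown, and Klf6, at 13.4 and 14.3 against 17.2 and 15.5 CPM. Egr4 was at 0 in every library, and Egr3, Npas4 and Klf2 had too few counts to test; Klf2, picked after its values were seen, had 4 and 4 counts in shControl and 0 in both knockdown libraries. Of 25 tested effectors and inhibitors, which include the Egr corepressors Nab1 and Nab2 and the mRNA decay factor Zfp36, 1 rose (Dusp6), 0 fell and 24 did not pass, with a median of -0.03. Among the 27 kinases and transcription factors upstream of the group 0 passed in edgeR, 3 had an unadjusted p under 0.05, and the median was -0.15. Mapk8, which encodes the Jun kinase JNK1, measured 25.0 and 27.3 CPM in shControl and 24.0 and 22.8 CPM after triple knockdown. Mapk3 (ERK1), picked after its values were seen, measured 16.8 and 11.3 against 10.1 and 7.82 CPM (edgeR adjusted p = 0.057, log2 fold change -0.66 with an SE of 0.19).

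**Figure D5:**
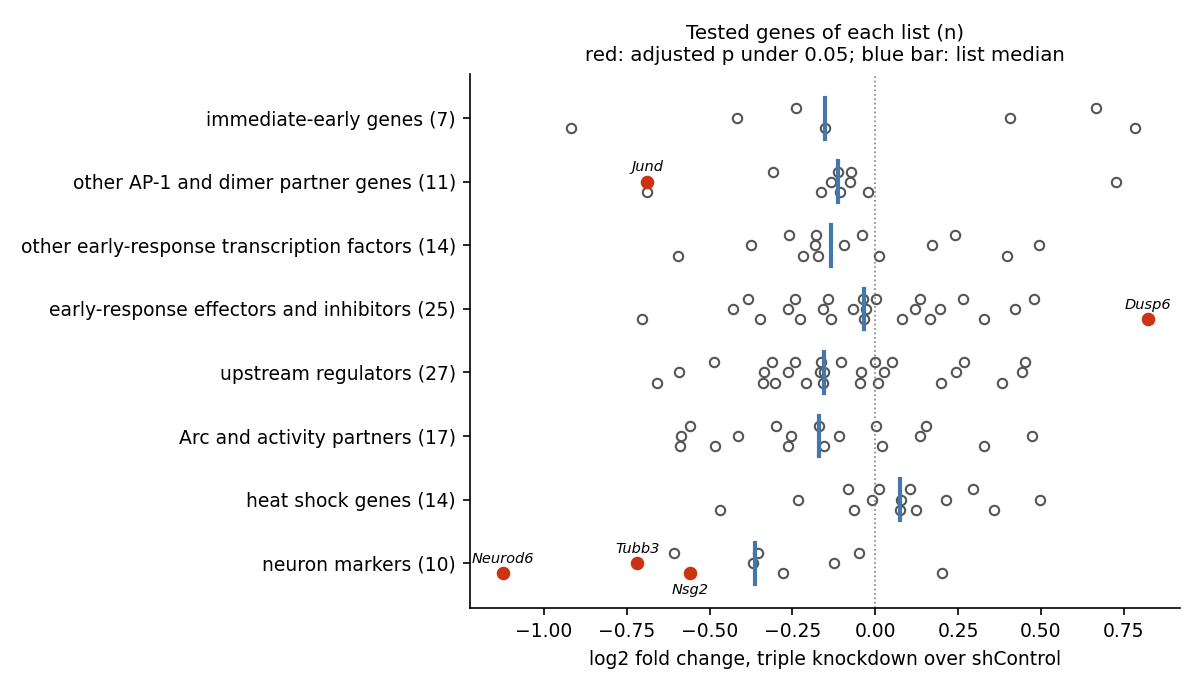
Log2 fold change of the triple knockdown over shControl (horizontal axis) for each tested gene of 8 lists, with the number tested in brackets; red points passed an adjusted p of 0.05 and blue bars are list medians. The immediate-early genes spread from -0.92 to 0.78 with 0 in red, and red points are Jund, Dusp6 and 3 neuron markers.

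Neurons express several of these genes, and neuron markers moved between the groups. Of 10 neuron markers 3 fell (Tubb3, Neurod6 and Nsg2) and 7 did not pass; their summed level was 922 and 826 CPM in shControl and 667 and 673 CPM after triple knockdown, and none was at 0. In bulk RNA, fewer cells of a type and less RNA per cell cannot be told apart. Microglia and macrophage markers (7 tested, 0 passed in edgeR, 2 at an unadjusted p under 0.05, 31.4 and 34.8 against 35.1 and 29.8 CPM in sum) and endothelial and mural markers (5 tested, 0 passed and 0 at that unadjusted p, 8.73 and 11.0 against 9.54 and 9.84 CPM) overlapped between the groups. Meningeal fibroblast markers (8 tested, 0 passed, 1 at that unadjusted p) summed to 61.3 and 59.4 CPM in shControl and 55.4 and 57.4 CPM after triple knockdown. Of 6 tested red blood cell genes 1, the embryonic globin gene Hbb-y, rose in edgeR (adjusted p = 0.0399), and the list's sum was 26.5 and 29.1 CPM in shControl and 41.7 and 39.6 CPM after triple knockdown. The part of these cell types, and of the lower mitochondrial share, in the values of the immediate-early genes was not tested; with mitochondrial genes left out before scaling, the log2 fold changes of Fos and Egr1 were -0.92 and 0.78.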

How the data were processed

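The deposited table holds estimated counts for each gene identifier, without normalization. The submitters' processing notes name Salmon, GRCm38 and mm10; no source used here gives the version of Salmon, the annotation or how transcripts were summed. Estimated counts were rounded to whole numbers. Identifiers were matched without version to GENCODE M21 (GRCm38), which gave 34582 of 34866 a symbol. All genes were fitted together with edgeR 4.0.16 in R 4.3.3: TMM scaling, filterByExpr with a minimum count of 10 (14050 genes kept), a robust quasi-likelihood fit of group alone and a two-sided F test with Benjamini-Hochberg adjustment, threshold 0.05. SE is the log2 fold change over the square root of F, and 95% intervals use the t distribution. CPM uses TMM-scaled library sizes; replicate differences and profiles use log2 CPM with a prior count of 2. Alternatives used DESeq2 1.42.0 and limma 3.58.1 (voom). The fit was tested on simulated data. The members and lists were chosen with earlier results of these data known. The genes named from each list were those past the threshold, up to 3, or else up to 2 by highest CPM; others are marked as picked later, and 2 genes that the rule names are not reported here. Genes with an older symbol were listed under both names and counted once. Shared 31-mers and exonic overlap came from M21; promoters are from RefSeq.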

Additional observations from a re-analysis of the deposited data

How the results depend on the processing

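Over 13 alternative fits Fos, Egr1, Fosl2, Jun and Nr4a1 kept their direction in 13 and Junb in the 12 that tested it. The groups did not overlap for any of these genes, and the fits reuse the same libraries. A kept direction is therefore no separate evidence. Ier2 ran from -0.34 to 0.12 without 1 library, the reversed value being that without shControl replicate 1. Fosl2 passed in 1, without shControl replicate 2, and Fos and Egr1 in 0. Adjusted p-values ranged from 0.214 to 1.00 for Fos and from 0.298 to 1.00 for Egr1, and their log2 fold changes from -0.98 to -0.84 and from 0.65 to 0.90. The median over the 7 tested genes was 0.13 when genes needed 1 CPM or more in 2 libraries, which drops Junb, and -0.17 to 0.12 without 1 library. Genes called higher and lower were 76 and 116, 77 and 28 with library size alone, 23 and 32 with DESeq2, and 27 to 280 and 17 to 334 without 1 library (112 and 184 without replicate 1 of shControl, 280 and 334 without its replicate 2, 27 and 17 without replicate 1 of the knockdown group, 36 and 27 without its replicate 2); immediate-early genes called higher were 0 to 1 without 1 library. Where a library was left out, the lone library of its group was assumed to vary like the other group. The replicate number as a block gave 75 and 97 genes and 0 immediate-early genes; same-numbered libraries did not deviate together (correlation -0.03 across genes), and the labels do not say that the numbers pair the libraries. By longest transcript the shControl levels per kilobase were 1.28 for Fos, 0.462 for Junb, 0.386 for Egr1, 0.0488 for Egr2 and 0.624 for Nr4a1. The tested immediate-early genes rest on 8 to 180 counts per library, which limits them to the wide intervals given.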

Other observations

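Some heat shock genes respond to handling and dissociation, as immediate-early genes do. Of 14 tested 0 passed in edgeR, with 1 (Hspd1) at an unadjusted p under 0.05 and a median log2 fold change of 0.08. The knockdown libraries lay entirely above control for 4 and entirely below for 2, against 19.6% and 21.7% of all tested genes. Hspa1a had too few counts to test. The part of handling in the values of the immediate-early genes was not tested. The mitochondrial chaperonin gene Hspe1, the most abundant, measured 985 and 1241 CPM in shControl and 1251 and 1329 CPM after triple knockdown, and Dnaja1, an Hsp70 cochaperone, 412 and 349 against 334 and 395 CPM. Of 17 tested genes of activity-dependent plasticity 0 passed in edgeR, 3 had an unadjusted p under 0.05, and the median was -0.17. Dlg4, which encodes the postsynaptic scaffold PSD-95, measured 29.3 and 21.9 CPM in shControl and 19.0 and 17.9 CPM after triple knockdown.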
